A study of Mus musculus with 10 samples.

Results

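The tumor necrosis factor (TNF) superfamily, its receptors and the TRAF adaptors that work beneath them were followed in primary mouse adipocytes with and without adipocyte Fam20c. The members were the rows of the count table whose symbol begins with Tnfsf or Tnfrsf and a digit, Traf1 to Traf6, and 11 further symbols, namely Tnf, Lta, Ltb, Ltbr, Fas, Fasl, Cd40, Cd40lg, Tnfaip3, Tradd and Ripk1. This gave 49 genes of 56748 in the table, of which 16 encode ligands, 23 encode receptors, 6 are TRAFs, 3 are adaptors or regulators and 1 is an antisense transcript. The rule for the members uses gene symbols and no measured value. RNA-seq covered 5 Control and 5 KO cultures of inguinal stromal vascular cells that had been differentiated into adipocytes, and asked which transcripts depend on Fam20c, a secretory pathway kinase. Control cells carried the Fam20c-flox alleles alone, and KO cells carried Fam20c-flox together with Adipoq-Cre, so that the floxed alleles were common to both groups. The floxed line had been backcrossed to C57BL/6J, the donors were male mice of 6 to 8 weeks, and all cultures received the same adipogenic differentiation for 6 to 8 days. The adiponectin promoter that drives Cre becomes active as adipocytes form, so undifferentiated cells of these cultures keep the gene. The labels do not say whether the numbered cultures came from separate mice, and p-values therefore measure the spread between these libraries, which may be technical.

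TNF superfamily ligands are membrane proteins, some of them shed, that assemble as trimers and gather their receptors on the target cell. Receptors with a death domain recruit TRADD or FADD and can lead to NF-kB activation or to caspase activation, while the other signalling receptors bind TRAF proteins directly and lead to NF-kB and MAP kinases. In fat, TNF is known for suppressing adipocyte differentiation, raising lipolysis and impairing insulin signalling, and its message comes largely from macrophages.

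Because several of these genes are classical NF-kB targets, the RefSeq promoter windows of GRCm38.p6 (250 bases before and 50 after each start) were searched on both strands for GGGNNTTTCC, a form of the NF-kB site. RefSeq windows were matched for 38 of the 49 members, 44 windows in all, and 6 genes (15.8%) held the motif, against 512 of 27025 genes (1.89%) over all promoters of the same length. They were Ltb, Tnfaip3, Tnfrsf9, Tnfrsf25, Traf2 and Traf3. The lines below give 30 bases around the match in those members whose match lies before the start, each 5′ to 3′ on the strand of its gene with the matched letters in capitals, since these are the members that share a sequence feature the choice of genes did not use.
Tnfrsf9, chr4:150927946-150927975, plus strand: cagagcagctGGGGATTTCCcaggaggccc
Traf3, chr12:111166350-111166379, plus strand: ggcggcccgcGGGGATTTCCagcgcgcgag
Ltb, chr17:35194410-35194439, plus strand: aagggtgttcGGAAAGTCCCcgggcagggg
Tnfaip3, chr10:19015403-19015432, minus strand: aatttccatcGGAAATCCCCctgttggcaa
Tnfrsf25, chr4:152115706-152115735, plus strand: tgagacccagGGAAAAGCCCctggctctgg
Tnfrsf9 and Traf3 hold the identical 10 letters on the gene's own strand, and the other 3 match the motif as read on the opposite strand, with differing letters at the free positions. The match begins 43 bases before the second of the RefSeq starts of Tnfrsf9, 10 before that of Traf3, 87 before that of Ltb, 12 before that of Tnfaip3 and 218 before that of Tnfrsf25. In Tnfrsf9 it lies within an exon of another transcript model of GENCODE M21. The 250 bases before the first RefSeq start of Tnfrsf9, chr4:150919905-150920154 on the plus strand, held no match. They are shown because Tnfrsf9 is the member with the lowest adjusted p below.
Tnfrsf9, before the first start: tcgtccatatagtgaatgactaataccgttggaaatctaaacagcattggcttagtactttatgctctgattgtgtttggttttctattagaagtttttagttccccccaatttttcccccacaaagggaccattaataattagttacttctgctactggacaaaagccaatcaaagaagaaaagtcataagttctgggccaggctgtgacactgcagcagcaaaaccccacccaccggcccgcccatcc
A match of letters is a description of the window and not evidence of a bound site.

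Libraries held 18949106 to 26237825 counts. Values below are in CPM, the share of a library's TMM-scaled total that a gene's counts make up, and a value after ± is the SD among the libraries of that genotype. Fam20c, the targeted gene, averaged 10.2 ± 1.29 CPM over Control and 7.30 ± 0.449 CPM over KO libraries (SD, n = 5 each) and did not overlap between them, with a log2 fold change of -0.49 (SE 0.093) and adjusted p = 0.0137 (edgeR's quasi-likelihood test, Benjamini-Hochberg adjusted over all genes tested). Control 4 and KO 1 stood apart from the other 8 libraries on the first principal component (23.5% of the variance). On the second (20.5%) KO 2 to KO 5 scored from -18.7 to -10.6, below every Control library. KO 1 (3.32) lay level with Control 2 (3.37) there. The summed level of 12 adipocyte markers was 31688 to 32550 CPM in Control and 33372 to 35395 CPM in KO libraries, with none of the 12 past the limit. Most of that sum was Fabp4, with means of 20805 CPM in Control and 22552 CPM in KO libraries. Log2 fold changes were above 0 in 10 of the 12, against 7091 of all 14270 genes tested. At an unadjusted p under 0.05 in edgeR, 5 of the 12 were higher and none lower, against 4.43% and 7.46% of all genes. DESeq2's Wald test gave an adjusted p of 0.0117 for Lipe and 0.0351 for Fabp4, and called 3.39% of all genes. Endothelial markers differed most, with 16 of 18 lower in KO and a sum of 230.6 to 275.4 CPM in Control against 106.8 to 149.1 CPM in KO libraries. Markers of macrophages and myeloid cells summed to 1286 to 1994 and 1142 to 1894 CPM, with 1 of 13 tested lower (Cd163). Those of progenitors and fibroblasts summed to 2872 to 3376 and 2510 to 2942 CPM, with 3 of 11 lower. Those of pericytes and smooth muscle summed to 231.8 to 291.4 and 200.2 to 247.0 CPM, with 0 of 8. The limit is an edgeR adjusted p under 0.05, and the counts of 16, 1, 3 and 0 are of markers past it. Of all genes tested, 1.86% were past it and lower in KO, and 0.308% were past it and higher. Log2 fold changes were below 0 in 8 of the 13, 9 of the 11 and 7 of the 8, against 7179 of all 14270 genes tested. Mast cell markers summed to 6.07 to 11.5 and 2.89 to 6.20 CPM. Nearly all of that sum was Kit, which was lower (means of 8.09 and 3.80 CPM) and was the only 1 of the 6 that passed the filter on low counts. Cma1 averaged 0.0891 and 0.0841 CPM. Lymphocyte markers summed to 0.975 to 2.51 and 0.917 to 3.72 CPM, with Cd3g, Ms4a1 and Ncr1 among those at 0 in every library.

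The cultures held abundant receptor message and little ligand message. After edgeR's filter on low counts, 31 of the 49 members could be tested: 5 of 16 ligands, 4 of 5 death domain receptors, 8 of 14 receptors that bind TRAFs, all 4 decoy or other receptors, all 6 TRAFs, all 3 adaptors or regulators, and the antisense transcript Tnfsf13os. Levels of different genes are compared here as CPM per kilobase of exon, with exon lengths from GENCODE M21. Tnfrsf1a, the main TNF receptor of non-immune cells, was the highest member at 113.8 ± 4.04 CPM per kb in Control cultures (SD, n = 5). Ltbr, the lymphotoxin beta receptor, followed with 33.7 ± 2.01, Tnfrsf12a (Fn14, the receptor of TWEAK) with 33.3 ± 3.12 and Traf4 with 25.0 ± 1.17 CPM per kb. Ltbr and Tnfrsf12a did not differ beyond their spread. The next members in order were Tnfrsf1b at 7.57 ± 1.01, Ripk1 at 6.00 ± 0.357 and Tnfrsf9 at 5.04 ± 1.41 CPM per kb. Ripk1 lay within the spread of Tnfrsf9, and Tnfrsf1b lay above both by more than their SD. The highest ligands were Tnfsf12 (TWEAK) at 2.83 ± 0.624 and Tnfsf9 (CD137 ligand) at 2.45 ± 0.524 CPM per kb, and Tnf itself was at 0.188 ± 0.163 CPM per kb.

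**Figure D1:**
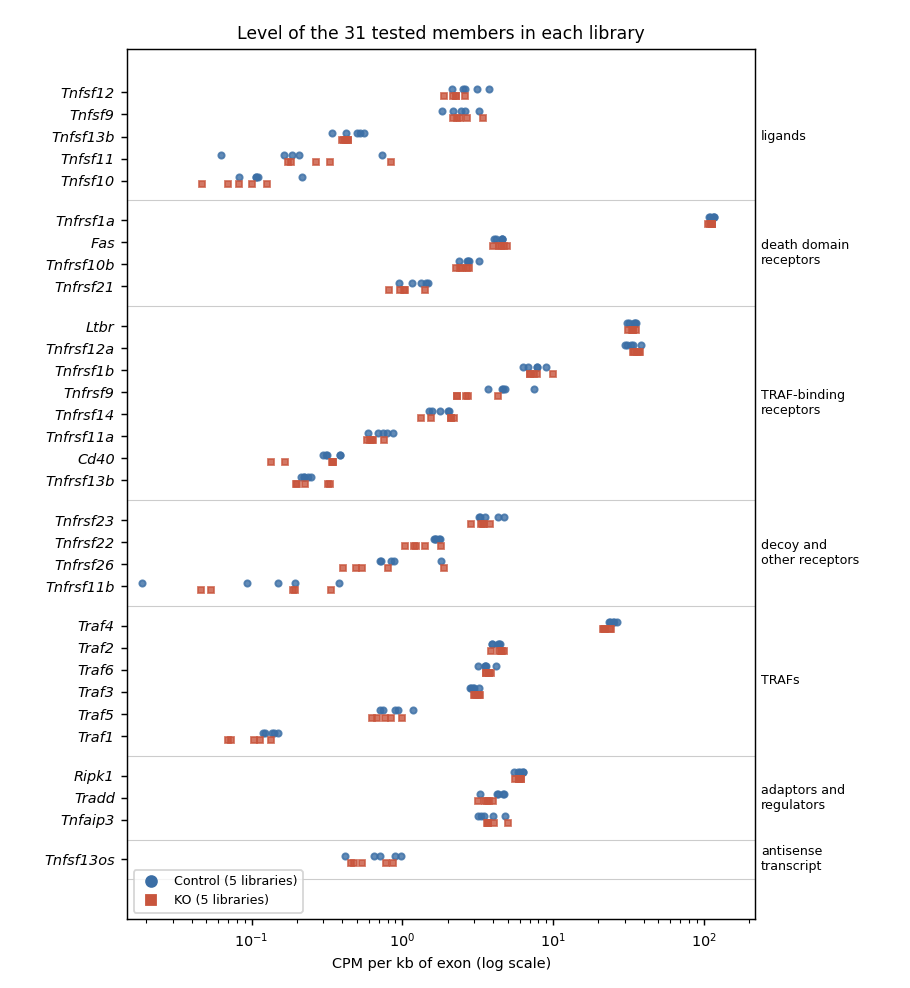
Level of the 31 tested members in each library, as CPM per kb of exon on a log axis, with Control libraries as blue circles and KO libraries as red squares, grouped by role. Tnfrsf1a lies near 114 CPM per kb, well above every ligand, and the groups overlap for each gene shown.

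Of 26 known ligand and receptor pairs among the members, 10 joined a receptor that passed the filter to a ligand that did not. These were Tnf and Lta with Tnfrsf1a and Tnfrsf1b, Ltb with Ltbr, Tnfsf14 (LIGHT) with Ltbr and Tnfrsf14, Fasl with Fas, Cd40lg with Cd40, and Tnfsf13 (APRIL) with Tnfrsf13b. Both partners passed in 9 pairs, among them TWEAK with Fn14, Tnfsf9 with Tnfrsf9, Tnfsf11 (RANKL) with Tnfrsf11a (RANK) and Tnfsf10 (TRAIL) with Tnfrsf10b. In 2 pairs the ligand alone passed, Tnfsf13b (BAFF) with Tnfrsf13c and with Tnfrsf17, and in 5 neither did. A low message in whole cultures can come from few cells of a type or from little RNA per cell, and these cannot be told apart here.

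**Figure D2:**
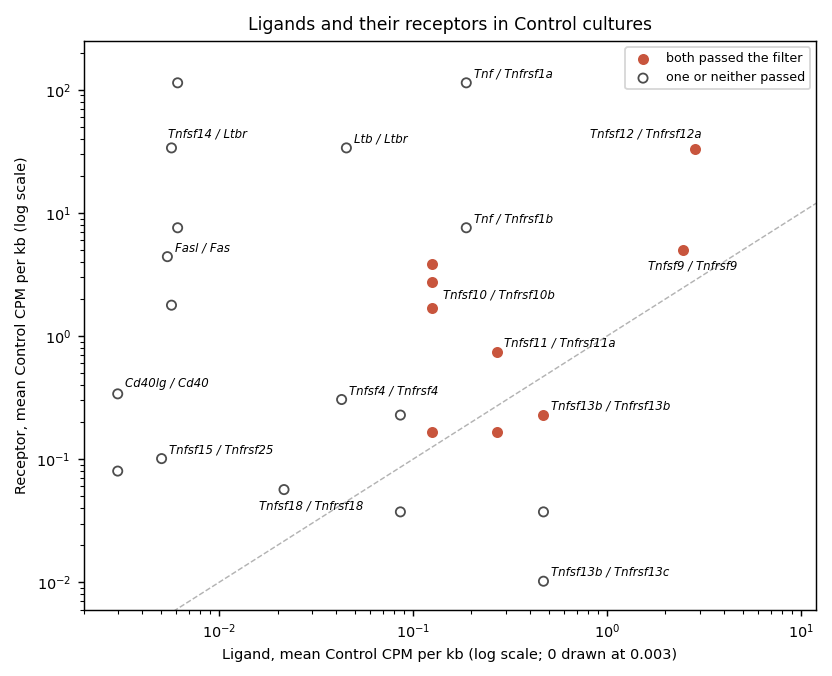
Mean Control CPM per kb of the ligand (x axis, log scale, 0 drawn at 0.003) and of its receptor (y axis, log scale) for the 26 pairs, with filled red points where both passed the filter and open points otherwise. The dashed line marks equal levels, and most points lie above it, with Tnf at 0.188 against Tnfrsf1a at 113.8 CPM per kb.

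In KO against Control, 0 of the 31 tested members passed the limit of 0.05 on the adjusted p of edgeR's quasi-likelihood test, where 309 of all 14270 genes tested (2.17%) did, 1.86% lower and 0.308% higher. At an unadjusted p under 0.05 there were 6 members, all lower in KO (Tnfrsf9, Traf4, Tnfrsf22, Tradd, Tnfsf12 and Traf1), and none higher. Over all genes, 7.46% were lower and 4.43% higher at that unadjusted level. DESeq2 and limma voom each called 1 member, Tnfrsf9, lower. DESeq2 called 3.39% of all genes, 2.52% lower, and limma voom 3.21%, 2.43% lower. The median log2 fold change was -0.12 over the 31 tested members and -0.00085 over all genes, with 20 members below 0 and 11 above. For 18 of the 31 the 95% interval of the log2 fold change lay within ±0.5, and for 26 within ±1. No tested member had all KO libraries on the same side of all Control libraries, which 2.66% of all genes had with KO lower and 1.31% with KO higher.

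**Figure D3:**
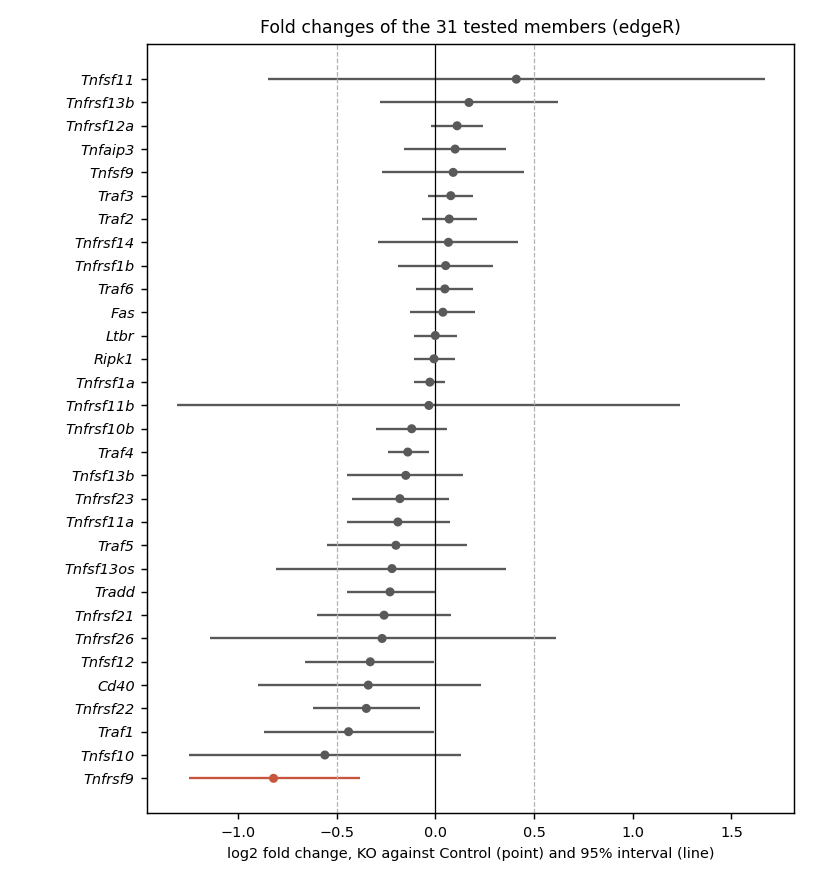
Log2 fold change of KO against Control (point) with its 95% interval (line) for the 31 tested members, from edgeR, ordered by size. Tnfrsf9, in red, has the lowest adjusted p (0.0598) and an estimate of -0.82, and dashed lines mark ±0.5.

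A receptor gene, Tnfrsf9, had the lowest adjusted p of the family in edgeR, followed by Traf4 (0.236) and the receptor gene Tnfrsf22 (0.248). Tnfrsf9 (chr4:150914562-150946102, plus strand) encodes CD137, a costimulatory receptor best known from activated T cells and also described on endothelial cells and mast cells. It measured 10.0, 12.7, 12.6, 20.2 and 13.1 CPM in Control 1 to 5 and 11.7, 7.25, 7.46, 6.28 and 6.26 CPM in KO 1 to 5. KO 1 lay above Control 1, and the other 4 KO libraries lay below every Control library. The means were 13.7 ± 3.83 and 7.79 ± 2.26 CPM (SD, n = 5 each), with a log2 fold change of -0.82 (SE 0.200, 95% interval -1.25 to -0.38). The adjusted p was 0.0598 in edgeR's quasi-likelihood test, just outside the limit. A 2-sided exact permutation test of this gene alone gave an unadjusted p of 0.0159. The same counts gave an adjusted p of 0.00290 with DESeq2 and 0.0150 with limma voom. In edgeR the adjusted p was 0.0492 with upper quartile scaling and 0.00658 with no filter on low counts. Leaving out a library moved the log2 fold change between -1.0 and -0.64 and the edgeR adjusted p between 0.00873 (without KO 1) and 0.158 (without KO 5). It also passed without Control 1, at 0.0472. Without both Control 4 and KO 1, the libraries that stood apart, the log2 fold change was -0.83 and the edgeR adjusted p 0.00100. Tnfrsf9 was highest in those libraries within each group. Its ligand Tnfsf9 averaged 3.17 ± 0.676 CPM over Control and 3.36 ± 0.641 CPM over KO libraries (SD, n = 5 each), with a log2 fold change of 0.09 (95% interval -0.27 to 0.45). Endothelial markers and Kit, the only mast cell marker that passed the filter, were lower in KO by the values given above. Among lymphocyte markers only Il7r passed it. Their part in the Tnfrsf9 difference was not tested.

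Tnfrsf8 encodes CD30, a receptor of activated lymphocytes, and was too low for the fit. It had 0.157, 0.150, 0.376, 0.193 and 0.507 CPM in Control 1 to 5 and 0.0992, 0.0439, 0.0436, 0.137 and 0.102 CPM in KO 1 to 5. All 5 KO libraries lay below all 5 Control libraries, and the counts were 31 in Control and 9 in KO in total. It was the only 1 of the 49 members with such a separation, and it is described here because of it. Of all genes tested, 2.66% had one with KO lower, a share over genes that passed the filter, which Tnfrsf8 did not. A 2-sided exact permutation test gave p = 0.00794, the smallest that 5 against 5 allows and the value of any full separation. With no filter on low counts, edgeR's log2 fold change was -1.66 with an adjusted p of 0.235.

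**Figure D4:**
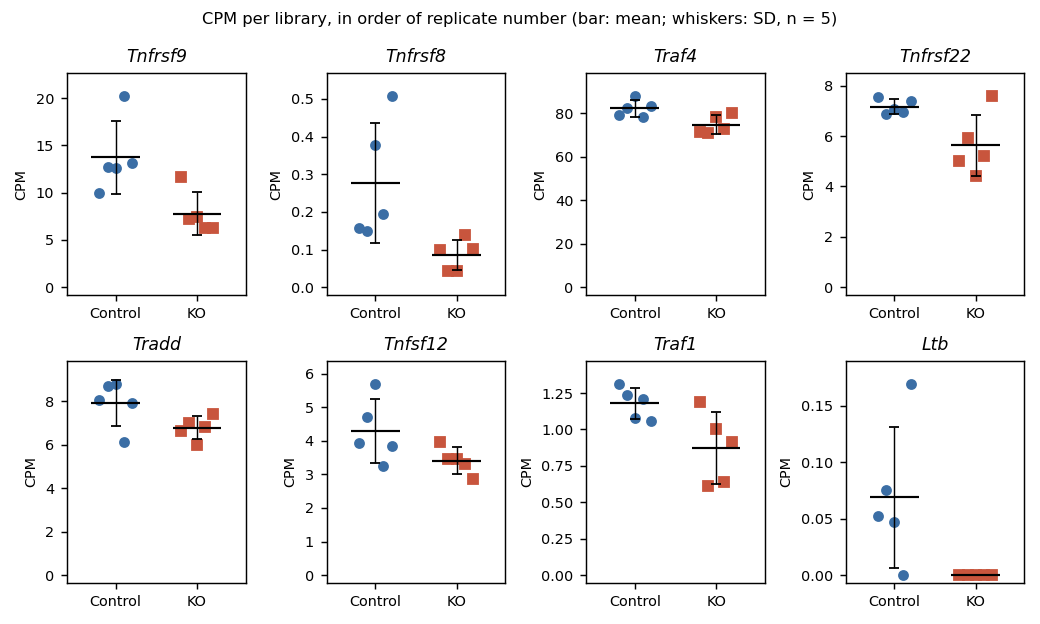
CPM in each library (points, in order of replicate number) with the mean (bar) and SD (whiskers, n = 5) for the 6 members with an unadjusted p under 0.05 and for Tnfrsf8 and Ltb, which were below the filter. Tnfrsf8 is the only panel in which all KO libraries lie below all Control libraries, and Ltb is at 0 in every KO library.

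The other receptors that bind TRAFs were close to equal in the groups or too low to say. Ltbr measured 75.2, 81.5, 83.4, 73.1 and 82.9 CPM in Control and 79.1, 73.5, 80.1, 80.0 and 83.3 CPM in KO libraries. The ranges overlapped almost wholly, and the 95% interval of the log2 fold change ran from -0.11 to 0.11. Tnfrsf12a measured 60.0, 58.3, 63.6, 73.7 and 66.1 CPM in Control and 73.5, 66.1, 66.5, 69.5 and 71.5 CPM in KO libraries. The log2 fold change of this TWEAK receptor was 0.11 (95% interval -0.02 to 0.24), and Control 4 was level with the highest KO library. Tnfrsf1b, the TNF receptor more typical of immune and endothelial cells, measured 26.2, 24.1, 29.8, 34.2 and 30.1 CPM in Control and 38.0, 26.8, 29.7, 28.4 and 26.7 CPM in KO libraries. KO 1 was the highest library of all and the groups overlapped, with a log2 fold change of 0.05 (95% interval -0.19 to 0.29). Cd40, a receptor of antigen-presenting cells, had 1.31, 1.01, 1.08, 1.31 and 1.06 CPM in Control and 1.19, 0.571, 1.18, 0.458 and 1.17 CPM in KO libraries. KO 2 and KO 4 lay below every other library, and the interval from -0.90 to 0.23 was wide. Tnfrsf11a had a log2 fold change of -0.19 (-0.45 to 0.07), Tnfrsf14 of 0.07 (-0.29 to 0.42) and Tnfrsf13b (TACI) of 0.17 (-0.28 to 0.62). Tnfrsf4 (OX40) averaged 0.417 CPM over Control and 0.298 CPM over KO libraries, and Tnfrsf13c, Tnfrsf17, Tnfrsf18 and Tnfrsf19 stayed below 0.1 CPM on average in both groups.

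Of the 5 death domain receptors, 4 were tested, and none passed the limit. Tnfrsf1a (chr6:125349362-125362484, next to Ltbr on chromosome 6) measured 284.9, 298.1, 303.9, 282.8 and 304.9 CPM in Control and 278.5, 285.4, 293.6, 294.8 and 293.6 CPM in KO libraries. The groups overlapped, and the log2 fold change of -0.03 had a 95% interval of -0.11 to 0.05, the narrowest of the family. Fas, the receptor of Fas ligand, measured 9.44, 8.44, 9.41, 9.53 and 8.62 CPM in Control and 8.18, 10.2, 9.73, 9.07 and 9.36 CPM in KO libraries. Its interval, -0.13 to 0.20, also spanned 0 with overlapping libraries. Tnfrsf10b, the mouse TRAIL receptor with a death domain, had a log2 fold change of -0.12 (-0.30 to 0.06) and Tnfrsf21 (DR6) one of -0.26 (-0.60 to 0.08). Tnfrsf25, a death domain receptor of T cells, averaged 0.230 and 0.165 CPM and was not tested.

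The decoy and other receptors include a cluster of receptor genes on chromosome 7. Tnfrsf22 (chr7:143634806-143649661), a TRAIL receptor without a death domain, measured 7.55, 6.86, 7.05, 6.96 and 7.40 CPM in Control and 5.01, 5.93, 4.41, 5.22 and 7.58 CPM in KO libraries. KO 1 to KO 4 lay below every Control library, and KO 5 lay above all of them. The log2 fold change was -0.35 (SE 0.126, 95% interval -0.62 to -0.08) with an edgeR adjusted p of 0.248, which became 0.0367, with a log2 fold change of -0.48, without KO 5. Its neighbour Tnfrsf23 averaged 15.1 ± 2.58 CPM over Control and 13.4 ± 1.36 CPM over KO libraries (SD, n = 5 each), with a log2 fold change of -0.18 (-0.42 to 0.07). The longest transcripts of Tnfrsf22 and Tnfrsf23 are 91.0% identical over 2174 bases, so the split of fragments between them is uncertain. Tnfrsf26, the third gene of the cluster, ranged from 2.29 to 2.82 CPM in the Control libraries other than Control 4 (5.80 CPM) and from 1.31 to 2.59 CPM in the KO libraries other than KO 1 (6.05 CPM). Tnfrsf11b encodes osteoprotegerin, a soluble decoy for RANKL and TRAIL. It had 0.0524, 0.262, 0.423, 1.06 and 0.550 CPM in Control and 0.942, 0.527, 0.131, 0.550 and 0.153 CPM in KO libraries. Libraries of the same group differed so widely that the 95% interval of the log2 fold change ran from -1.31 to 1.24.

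Among the ligands, Tnf was scarce in both genotypes. It had 0, 0.150, 0.705, 0.387 and 0.296 CPM in Control and 0.149, 0.132, 0.393, 0.550 and 0.254 CPM in KO libraries, which is 34 and 32 counts in total. The groups overlapped (2-sided exact permutation test, p = 0.992), and a difference in Tnf was not detectable at this depth. Tnfsf12 (chr11:69686250-69695849), whose product TWEAK signals through Fn14, measured 3.93, 4.72, 5.69, 3.24 and 3.85 CPM in Control and 3.97, 3.47, 3.45, 3.30 and 2.85 CPM in KO libraries. Control 1, 4 and 5 lay inside the KO range, and KO 1 to 4 lay inside the Control range. The log2 fold change was -0.33 (SE 0.151, 95% interval -0.66 to -0.01) with an edgeR adjusted p of 0.408, and 731 of its 1515 exonic bases are shared on the same strand with the readthrough gene Tnfsfm13. Tnfsf10 (TRAIL) had 0.577, 0.562, 0.564, 0.435 and 1.14 CPM in Control and 0.248, 0.527, 0.436, 0.366 and 0.662 CPM in KO libraries. Control 5 alone exceeded 1 CPM, the groups overlapped, and the log2 fold change was -0.56 (-1.25 to 0.13). Tnfsf13b (BAFF) had a log2 fold change of -0.15 (-0.45 to 0.14) and Tnfsf11 (RANKL) one of 0.41, with an interval from -0.85 to 1.67.

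The remaining ligands were near the floor of detection. Ltb, which forms the membrane lymphotoxin that engages Ltbr, had 0.0524, 0.0750, 0.0470, 0 and 0.169 CPM in Control libraries and 0 in all KO libraries. That is 8 counts against 0, so Control was at least 2.57-fold higher against a floor of 3 counts over the KO group, and at least 1.63-fold higher without Control 5, left out after seeing that it held 4 of the 8 counts. The counting error of the Control counts is not in these bounds, and with no filter edgeR's adjusted p was 0.272. Cd40lg had 0 counts in all 10 libraries. Lta, Fasl, Tnfsf4, Tnfsf8, Tnfsf14, Tnfsf15 and Tnfsf18 had at most 3 counts in any library, and Tnfsf13 at most 4. Tnfsf13os, transcribed antisense to Tnfsf13 with 221 shared exonic bases, was tested at 0.810 ± 0.243 and 0.692 ± 0.208 CPM (SD, n = 5 each) and had a log2 fold change of -0.22 (-0.81 to 0.36). The strand setting of the counting is not given in the sources used here, so reads in the shared bases cannot be assigned to either gene.

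All 6 TRAFs were expressed, and 2 of them had an unadjusted p under 0.05, both lower in KO. Over all genes, 7.46% were lower at that level. Traf4 (chr11:78158499-78165589), the most abundant TRAF here and one that acts mainly in epithelial and developmental signalling, measured 79.2, 82.5, 87.8, 78.0 and 83.3 CPM in Control and 71.2, 71.0, 78.2, 72.6 and 80.2 CPM in KO libraries. Only KO 3 and KO 5 reached the Control range. The log2 fold change was small at -0.14 (SE 0.0488, 95% interval -0.24 to -0.03), with an edgeR adjusted p of 0.236. Traf1, an NF-kB target that binds TRAF2, had 1.31, 1.24, 1.08, 1.21 and 1.06 CPM in Control and 1.19, 0.615, 1.00, 0.641 and 0.916 CPM in KO libraries. KO 1 was the only KO library inside the Control range, and the log2 fold change was -0.44 (SE 0.199, adjusted p = 0.411 in edgeR). Traf2, the main TRAF of both TNF receptors, measured 20.0, 22.4, 22.8, 21.9 and 20.2 CPM in Control and 24.1, 19.9, 23.3, 22.5 and 22.9 CPM in KO libraries. The groups overlapped and the interval was -0.07 to 0.21. Traf3, an inhibitor of non-canonical NF-kB signalling, and Traf6, the TRAF of RANK and the toll-like receptors, had log2 fold changes of 0.08 (-0.04 to 0.19) and 0.05 (-0.10 to 0.19). Traf5 had a log2 fold change of -0.20 (-0.55 to 0.16).

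Downstream of the receptors, Tradd (chr8:105258286-105264609), the adaptor that binds the death domain of TNF receptor 1, measured 8.08, 8.70, 8.79, 6.14 and 7.95 CPM in Control and 6.65, 7.03, 5.98, 6.83 and 7.43 CPM in KO libraries. Control 4 lay in the KO range, and the other 4 Control libraries lay above every KO library. The log2 fold change was -0.23 (SE 0.104, adjusted p = 0.407 in edgeR). Ripk1, the kinase that decides between survival and death signalling, averaged 50.1 ± 2.98 and 49.8 ± 1.68 CPM (SD, n = 5 each), and its interval ran from -0.11 to 0.10. Tnfaip3 (A20), an NF-kB target that ends TNF signalling, measured 28.7, 25.3, 23.1, 34.8 and 23.9 CPM in Control and 36.6, 29.4, 26.3, 26.6 and 26.7 CPM in KO libraries. Control 4 and KO 1 were the highest of their groups, and the log2 fold change was 0.10 (-0.16 to 0.36).

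The spread within groups followed a shared pattern. Control 4 was the highest Control library and KO 1 the highest KO library in 11 of the 31 tested members (35.5%), against 2093 of all 14270 genes (14.7%). The 11 were Tnfaip3, Tnfrsf11b, Tnfrsf12a, Tnfrsf1b, Tnfrsf23, Tnfrsf26, Tnfrsf9, Tnfsf11, Tnfsf9, Traf3 and Traf6, and none was a death domain receptor. Tnfsf11 was among them, with 1.64 CPM in Control 4 against 0.141 to 0.465 CPM in the other Control libraries and 1.88 CPM in KO 1 against 0.393 to 0.746 CPM in the other KO libraries. Summed over the receptors that bind TRAFs, Control 4 had 211.1 CPM against 182.0 to 201.4 CPM in the other Control libraries, and KO 1 had 211.8 CPM against 182.0 to 196.0 CPM in the other KO libraries. The summed death domain receptors had the opposite order, with Control 4 at 314.7 CPM against 315.5 to 332.6 CPM and KO 1 at 304.8 CPM against 314.9 to 322.8 CPM. Most of that sum was Tnfrsf1a, which was lowest in Control 4 (282.8 CPM) and KO 1 (278.5 CPM) within their groups. Fas (9.53 CPM) and Tnfrsf10b (17.5 CPM) were instead highest in Control 4 among Control libraries. In KO 1, Fas was the lowest of its group (8.18 CPM) and Tnfrsf10b lay inside the range (13.6 CPM). The ligand sum of Control 4 (13.2 CPM) and the TRAF sum of KO 1 (155.7 CPM) lay inside the range of the other libraries of their group. In a list of 38 genes that TNF and NF-kB are known to induce, 16 of 34 tested (47.1%) had the same order, and their sum was 5315 CPM in Control 4 against 4325 to 4742 CPM, and 4907 CPM in KO 1 against 4114 to 4472 CPM. Endothelial markers summed to 275.4 CPM in Control 4 against 230.6 to 272.4 CPM, and to 149.1 CPM in KO 1 against 106.8 to 125.8 CPM. Mast cell markers summed to 11.5 CPM in Control 4 against 6.07 to 8.41 CPM, and to 6.20 CPM in KO 1 against 2.89 to 3.61 CPM. Kit alone made up 11.1 CPM of the sum in Control 4 and 5.85 CPM in KO 1. Lymphocyte markers summed to 2.51 CPM in Control 4 against 0.975 to 2.16 CPM, and to 3.72 CPM in KO 1 against 0.917 to 1.47 CPM. Most of these sums was Il7r, at 2.18 CPM in Control 4 and 3.27 CPM in KO 1. Macrophage markers in Control 4 (1422 CPM) lay inside the range of the other Control libraries, and in KO 1 (1894 CPM) above the other KO libraries (1142 to 1845 CPM). The part of these markers in the pattern was not tested.

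**Figure D5:**
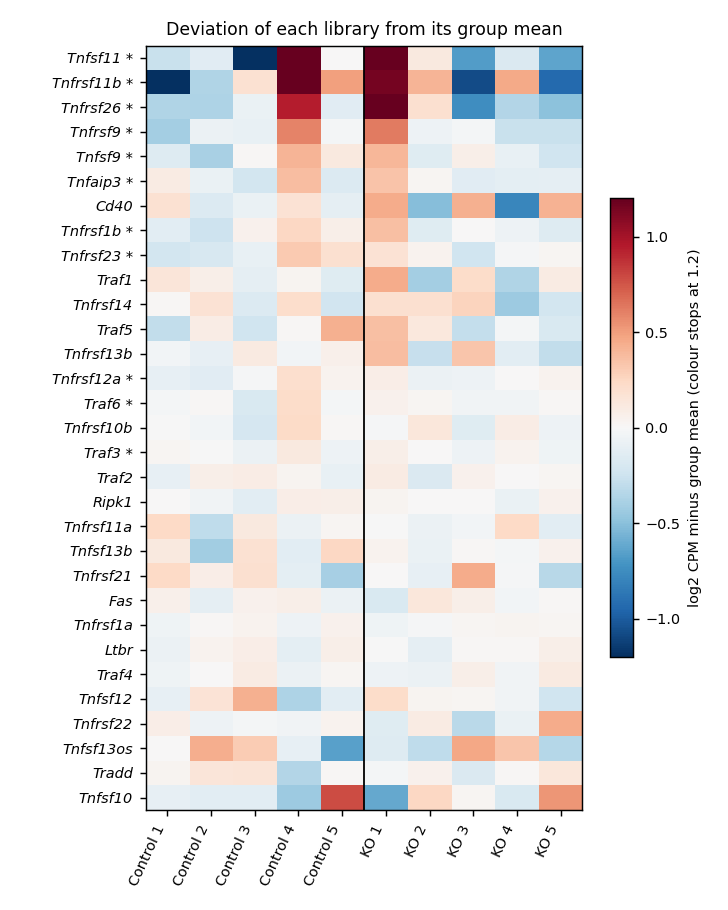
Log2 CPM of each tested member in each library minus the mean of its group (colour scale, stopping at ±1.2), with members ordered by the sum over Control 4 and KO 1. Asterisks mark the 11 members in which Control 4 and KO 1 are the highest of their groups, and Tnfsf11, Tnfrsf11b and Tnfrsf26 deviate most.

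Genes around the family were read from the same test. Of 60 other genes of TNF receptor signalling (adaptors, kinases, caspases, ubiquitin ligases, NF-kB subunits, sheddases), 59 were tested and 0 passed the limit, where 2.17% of all genes did. Their median log2 fold change was -0.00057. At an unadjusted p under 0.05, 5 of the 59 were lower and none was higher, against 7.46% and 4.43% of all genes. Casp8, the initiator caspase of death receptors, came closest with 29.3 ± 1.54 CPM over Control and 24.7 ± 1.89 CPM over KO libraries (SD, n = 5 each), a log2 fold change of -0.25 (SE 0.0616), an edgeR adjusted p of 0.0623 and a DESeq2 adjusted p of 0.0210. The other 4 were Ikbke (-0.26), Timp3 (-0.23), Ripk3 (-0.21) and Rhbdf1 (-0.14), with log2 fold changes in parentheses and edgeR adjusted p-values from 0.180 to 0.418.

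Of the 34 tested genes induced by TNF and NF-kB, 1 fell and 1 rose, where 1.86% of all genes were called lower and 0.308% higher. At an unadjusted p under 0.05, 7 were lower and 3 higher, against 7.46% and 4.43% of all genes. Vcam1, an adhesion molecule of activated endothelium and stroma, fell from a Control mean of 25.4 ± 2.71 CPM to a KO mean of 19.2 ± 2.03 CPM (SD, n = 5 each), by log2 fold change -0.40 (edgeR adjusted p = 0.0293). Mmp9, a gelatinase, rose from 12.1 ± 5.45 to 32.6 ± 13.1 CPM (SD, n = 5 each), by log2 fold change 1.44 (edgeR adjusted p = 0.0370). Every Mmp9 value in KO, from 18.8 to 52.6 CPM, exceeded every Control value, from 5.40 to 18.1 CPM. No other tested gene of the list was separated in this direction. In 3 of them, Vcam1, C3 and Tnfaip6, every KO library lay below every Control library. Over all genes, 1.31% were fully separated with KO higher and 2.66% with KO lower. The next by unadjusted p were Tnfaip6, C3, Plau, Ccl2 and Gadd45b, with log2 fold changes of -0.47, -0.23, -0.55, -0.48 and -0.27 and edgeR adjusted p-values from 0.0833 to 0.270. The median of the list was 0.03, with 16 genes below 0 and 18 above. The calls lay near the limit: none was called lower without Control 3, Control 5, KO 2, KO 3 or KO 5, and none higher without Control 1, Control 2, Control 5, KO 1, KO 3, KO 4 or KO 5. Without Control 4 the list had 2 higher genes, and without Control 4 and KO 1 it had 3. Endothelial markers were also lower in KO by the values given above, and their part in the Vcam1 difference was not tested.

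Of 9 superfamily genes that the symbol rule leaves out, 5 were tested and 1 passed the limit, lower in KO. Over all genes, 1.86% were called lower. Ngfr, the p75 neurotrophin receptor, which has a death domain, fell from 60.0, 61.4, 80.4, 50.9 and 71.5 CPM in Control libraries to values of 43.4, 34.6, 41.6, 41.5 and 38.6 CPM in KO libraries. The groups did not overlap, as in 2.66% of all genes with KO lower. The log2 fold change was -0.70 (SE 0.107) with an adjusted p of 0.00324 in edgeR. Eda2r, Relt, Eda and Traf7 had log2 fold changes of -0.14, -0.25, -0.13 and -0.07 with edgeR adjusted p-values from 0.487 to 0.653, and Cd70 had 0 counts in every library.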

How the data were processed

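Libraries were prepared by the authors with SMARTer and Nextera XT chemistry, sequenced paired-end, mapped with STAR to GRCm38.p6 (mm10 in the submitters' processing notes) and counted per gene with featureCounts; the deposited values are these counts, neither normalized nor pooled. The strand setting is not given in the sources used here. Gene identifiers carried versions above those of GENCODE M21 in 89.6% of matched genes and in all 49 members, so the counts used a later annotation; positions and exon lengths printed here are those of M21 on GRCm38 and may differ from the models counted. Exons of 9 members overlap another gene.

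Low genes were dropped with filterByExpr (minimum count 10) of edgeR 4.0.16, run under R 4.3.3. Library sizes were scaled by TMM. The quasi-likelihood test compared the genotypes without covariates, and its p-values were adjusted by Benjamini-Hochberg over 14270 genes with a limit of 0.05. CPM carry that scaling, and log2 CPM a prior count of 2. Single members were compared by 2-sided exact permutation of mean log2(CPM + 1) over all 252 assignments (scipy 1.17.1). A floor of 3 counts covers counting error only. Transcripts were aligned with BLAST 2.17.0. Scripts were tested on simulated counts. Libraries of a group differed by more than sampling noise.

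Values in every library are given for members with an unadjusted p under 0.05 or non-overlapping groups, and for Tnf, Tnfrsf1a, Tnfrsf1b, Fas, Ltbr, Cd40, Tnfsf12, Tnfrsf12a, Tnfsf10, Tnfrsf11b, Traf2 and Tnfaip3; of the other lists, genes past the limit and up to 5 more by unadjusted p are named. Other members, Ltb and Tnfrsf26 among them, are named with values chosen after these were seen. The members and all lists were chosen with earlier results of these data known. Alternatives were DESeq2 1.42.0, limma 3.58.1 (voom with sample quality weights), other size factors and filters, a replicate block and each library left out.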

Additional observations from a re-analysis of the deposited data

Results flagged for a closer look

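In 67 groups of 5 libraries (the tested members, Tnf, Tnfrsf8 and Ltb, by genotype), a single library lay far from the other 4 in 7, by a gap to its nearest neighbour of more than 0.71 of the group's range; chance gives about 1 in 20 such groups, or 3.35. Of the 7, 4 were KO 1, 2 were Control 4 and 1 was Control 5. The gap was 0.735 of the range for Tnfrsf1b in KO 1 (38.0 CPM against 26.7 to 29.7 CPM). For Tnfrsf9 in KO 1 it was 0.779 (11.7 against 6.26 to 7.46 CPM). For Tnfrsf26 it was 0.848 in Control 4 (5.80 against 2.29 to 2.82 CPM) and 0.730 in KO 1 (6.05 against 1.31 to 2.59 CPM). For Tnfsf11 it was 0.784 in Control 4 (1.64 against 0.141 to 0.465 CPM) and 0.763 in KO 1 (1.88 against 0.393 to 0.746 CPM). For Tnfsf10 it was 0.799 in Control 5 (1.14 against 0.435 to 0.577 CPM).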

How the results depend on the processing

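The count of members called lower, 0 in the test reported, was 1 with DESeq2, limma voom, upper quartile scaling, no filter, and without Control 4 and KO 1 (an exclusion chosen after seeing the data), in each case Tnfrsf9, and 0 to 1 with single libraries left out (Tnfrsf22 without KO 5). Genes called higher among all tested were 125 with DESeq2, 111 with limma voom, 145 without Control 4 and KO 1, and 19 to 119 with single libraries left out (119 without Control 4, 19 without Control 5). Genes called lower were 164 (without KO 2) to 353 (without Control 4 and KO 1) with libraries left out. For TNF receptor signalling, DESeq2, limma voom and the removal of Control 4 and KO 1 each called 1 gene lower. For induced genes, DESeq2 called 3 lower, limma voom and no filter 2 each, and single libraries left out gave 0 to 1 lower and 0 to 2 higher; without Control 4 and KO 1, 3 were higher. Of 551 member fold changes under alternatives, 26 in 8 members turned in sign, each with an interval spanning 0 in the test reported. Ltbr was 0.0026 with DESeq2, 0.0031 with its size factors and 0.0011 with no filter, Ripk1 0.0017 and Tnfrsf11b 0.36 with limma voom. With libraries left out, Ltbr ranged from -0.026 to 0.031, Ripk1 from -0.035 to 0.017, Tnfrsf11b from -0.44 to 0.47, Tnfrsf14 from -0.0028 to 0.17, Tnfrsf1b from -0.045 to 0.12, Tnfrsf26 from -0.80 to 0.06, Tnfsf11 from -0.15 to 1.17 and Tnfsf9 from -0.021 to 0.21 on the log2 scale. The cause of these moves was not tested.

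The replicate numbers gave no clear sign of pairing: correlations of deviations from the group means were -0.173, 0.0892, 0.263, -0.251 and 0.0337 for numbers 1 to 5. Control 4 with KO 1 gave 0.488. The sample titles do not state a pairing, and these values cannot exclude one. With the number as a block, 21 genes were called higher among all tested, 0 induced genes lower, Tnfrsf9 had an adjusted p of 0.154 in edgeR, and Ltbr was 0.00032. Genes under about 1 CPM rest on few counts, which limits the precision of their fold changes.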
